A study of Mus musculus with 7 samples.

Results

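Genes that mark the mural cells of blood vessels, 9 in all, were followed in mouse ventricle: Pdgfrb, Rgs5, Cspg4, Abcc9, Notch3, Higd1b and Mcam as pericyte markers, and Myh11 and Cnn1 as smooth muscle markers. The members were chosen by name, as rows of the expression table whose gene symbol equals a listed one, and all 9 were found among 23420 gene rows. All 9 reached 10 normalized counts in 3 or more libraries, the floor for testing, and so were among the 15258 genes tested.

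Mural cells wrap the endothelial tube. Pericytes sit on capillaries and share their basement membrane, while smooth muscle cells ring arterioles and arteries and set their width by contracting. Endothelial cells recruit both through platelet-derived growth factor acting on the receptor encoded by Pdgfrb, and Notch ligands on the endothelium act on the receptor encoded by Notch3. The heart is rich in capillaries, and its pericytes are known for high levels of Rgs5 and of the potassium channel genes Abcc9 and Kcnj8.

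The data were bulk sequencing of total RNA from the ventricles of untreated mice of 3 to 6 weeks, by the extraction notes, while the tissue label gives the whole heart. The 4 control mice were Ctla4+/+;Pdcd1-/- and the 3 ICI-myocarditis mice were Ctla4+/-;Pdcd1-/-, so the loss of Pdcd1, the gene of the checkpoint receptor PD-1, was shared by both groups and the groups differed in the dose of Ctla4. ICI stands for immune checkpoint inhibitor, and the combined genotype models the heart inflammation that such drugs can cause. No Cre driver or cell type is named for either allele, and nothing says whether any of the animals were littermates. The comparison asks how transcripts of the inflamed heart differ from those of control hearts.

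Libraries held 20931730 to 39037176 reads assigned to genes. The counts do not check the genotype labels. Pdcd1 reads were present in all libraries, at 2.50 to 244 normalized counts in controls and 1096 to 1481 in ICI-myocarditis, and Ctla4 lay at 29.2 to 113 and at 251 to 373. Control 2 stood apart from the other controls in T cell transcripts, with 1739 summed normalized counts over 8 T cell markers against 130 to 214 in controls 1, 3 and 4 and 7596 to 11673 in ICI-myocarditis. The 10 cardiomyocyte markers were abundant in every library, at 1889306 to 5155882 summed normalized counts, so the defining genes of heart muscle were present throughout. A normalized count is a read count over the size factor of its library. In bulk tissue fewer cells of a type and less RNA per cell cannot be told apart.

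Of the 9 mural markers, 4 fell in ICI-myocarditis and none rose at a threshold of 0.05 on limma's adjusted p. Rgs5, Abcc9, Myh11 and Cnn1 were lower by factors between 2.79 and 3.12, and in each of them every ICI-myocarditis library lay below every control. Among all genes tested 15.7% passed the threshold, 4.00% as lower and 11.7% as higher. The groups did not overlap for 28.6% of genes, with all ICI-myocarditis libraries below all controls for 11.3%. Pdgfrb, Notch3, Mcam, Higd1b and Cspg4 did not pass, and their groups overlapped. The median log2 fold change of the 9 was -0.77, beside -0.02 over all genes tested.

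**Figure D1:**
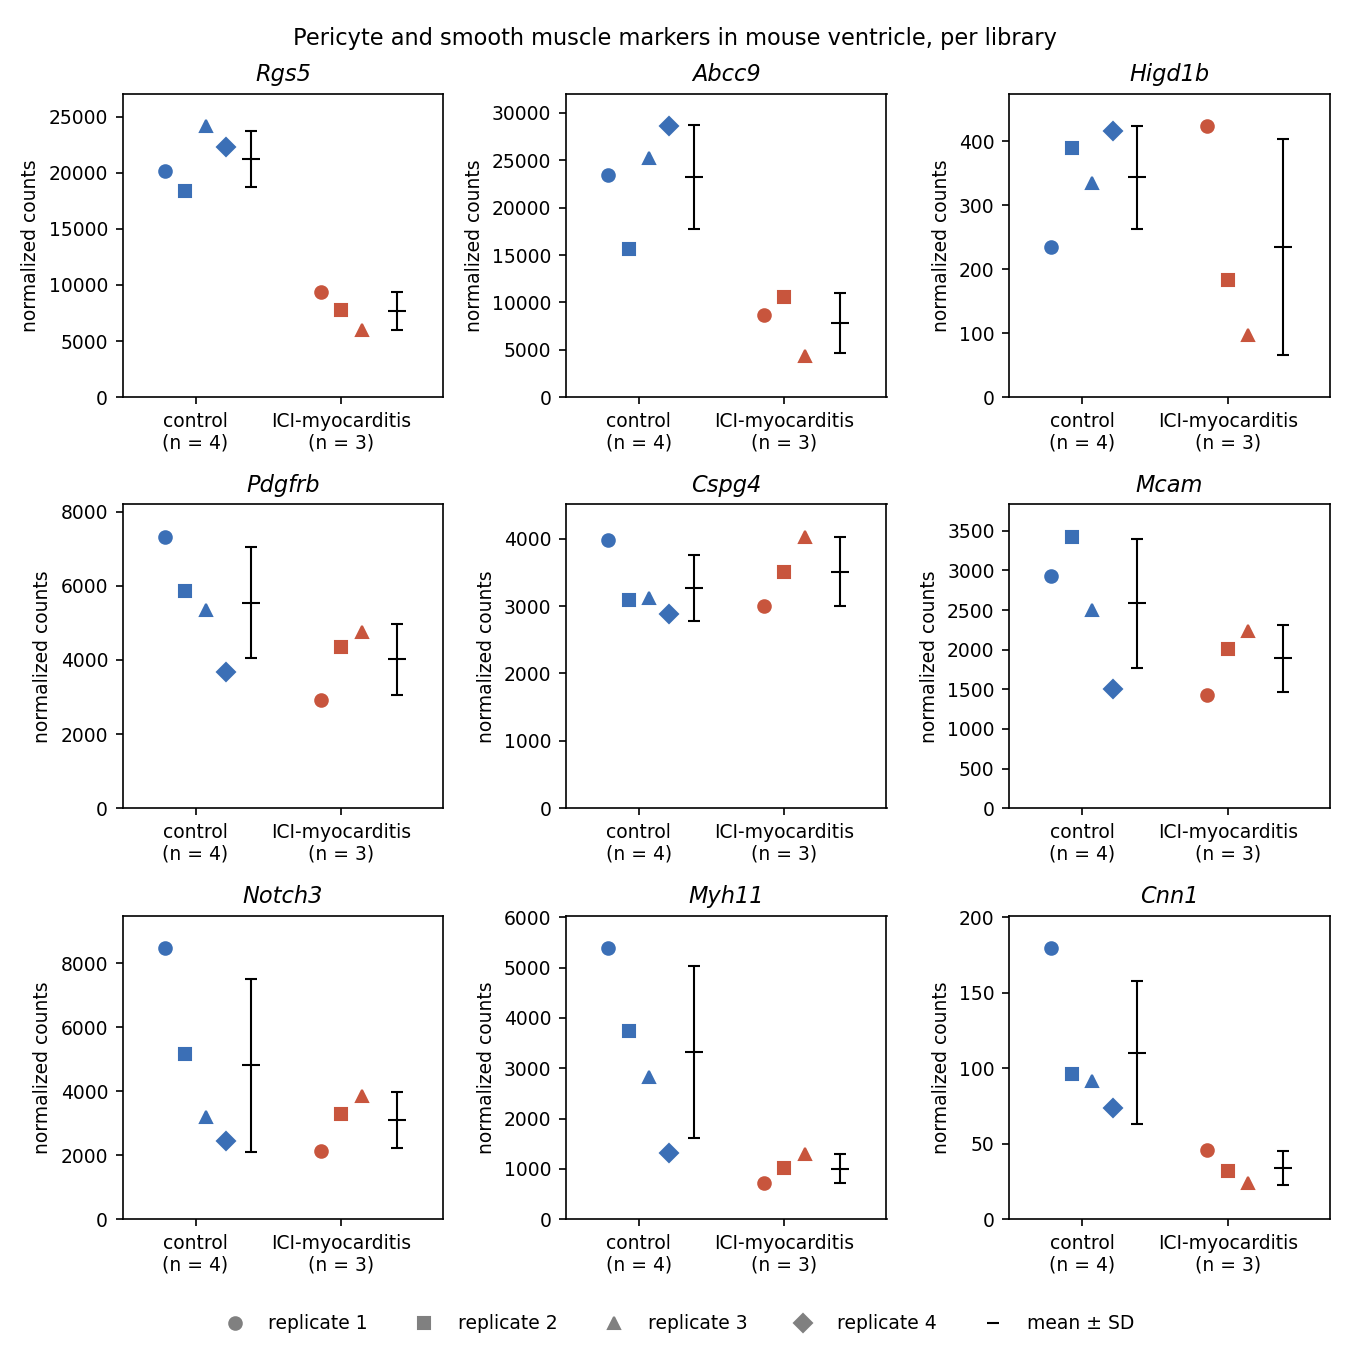
Normalized counts (vertical axes, linear from 0) of each of the 9 markers in 4 control and 3 ICI-myocarditis libraries, 1 symbol per library, with the mean ± SD beside each group. Rgs5, Abcc9, Myh11 and Cnn1 separate the groups, with the gap of Myh11 only from 1289 to 1305, while the groups of the other 5 genes overlap.

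Per kilobase of exon, in normalized counts over the controls, Rgs5 had the highest level of the 9, at 4669 ± 555 (SD, n = 4), which was rank 223 among 14282 tested genes with an annotated length. Abcc9 followed at 2773 ± 658 per kilobase. Below them came Pdgfrb at 1012 ± 274, Mcam at 772 ± 243, Notch3 at 595 ± 334, Myh11 at 437 ± 225, Higd1b at 406 ± 94.9 and Cspg4 at 274 ± 40.8. Each neighbouring pair from Pdgfrb to Cspg4 overlapped in range over the controls. Within a library, Pdgfrb was above Mcam and Notch3 above Myh11 in 4 of 4 controls and 3 of 3 ICI-myocarditis hearts. Mcam was above Notch3 in 3 of 4 controls, Myh11 above Higd1b in 2 and Higd1b above Cspg4 in 3, so these neighbours did not keep one order. Cnn1 was far lower, at 40.3 ± 17.2 per kilobase, below the other 8 in every control. In ICI-myocarditis Rgs5 still led with 1694 ± 370 per kilobase (SD, n = 3), at rank 618.

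Rgs5 encodes a regulator of G protein signalling that shortens signals from G protein-coupled receptors, and it is among the most widely used pericyte markers. It lies on chromosome 1 from 169655501 to 169695813 on the plus strand (GRCm38, GENCODE M21). Control libraries 1 to 4 held 20141, 18352, 24158 and 22252 normalized counts of Rgs5. ICI-myocarditis libraries 1 to 3 held 9366, 7738 and 5998. The highest ICI-myocarditis heart was far below the lowest control. Rgs5 fell by 1.48 on the log2 scale in limma (SE 0.254, 95% interval -2.05 to -0.91, adjusted p = 0.00649). It passed in all 18 alternative analyses, with adjusted p between 2.34e-08 and 0.0432. Without control 2 the fold change was -1.55 (limma adjusted p = 0.0027).

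Abcc9 encodes the sulfonylurea receptor subunit of ATP-sensitive potassium channels, which open when cell energy is low. Mural cells use one splice form of it with the pore subunit encoded by Kcnj8, and heart muscle cells use another with the pore subunit encoded by Kcnj11, so Abcc9 is not a gene of mural cells alone in ventricle. Abcc9 spans 142587862 to 142702315 on the minus strand of chromosome 6, and Kcnj8 lies beside it on the same strand, from 142564837 to 142571614, with 16247 bases between the annotated genes. Of the exonic bases of Abcc9, 1.89% are shared with an annotated gene on the opposite strand. Control libraries 1 to 4 held 23427, 15602, 25222 and 28608 normalized counts of Abcc9. ICI-myocarditis libraries held 8669, 10539 and 4384. Control 2 was the lowest control and ICI-myocarditis 3 the lowest library, and the groups did not overlap. Abcc9 fell by 1.62 on the log2 scale in limma (SE 0.358, adjusted p = 0.0164). The call was lost without ICI-myocarditis 3 (-1.25, limma adjusted p = 0.0653) and without control 3 (-1.57, limma adjusted p = 0.0572), and it held without control 2 (-1.80, limma adjusted p = 0.0059).

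The partner genes of the channel were read for comparison. Kcnj8 held 2210, 1699, 3122 and 2476 normalized counts in controls 1 to 4 and 1579, 1235 and 880 in ICI-myocarditis, with no overlap. Kcnj8 fell by 0.95 on the log2 scale in limma (SE 0.267, adjusted p = 0.041), a call made in 10 of 18 alternatives. It was lost when control 1, 3 or 4 or ICI-myocarditis 2 or 3 was left out (limma adjusted p from 0.0734 to 0.176), with scaling by total reads (0.0694) and without trended, robust variance (0.0631). Kcnj11 held 4933, 2270, 3798 and 6746 normalized counts in controls and 2553, 2726 and 1511 in ICI-myocarditis. Its groups overlapped through control 2, and it did not pass (limma log2 fold change -0.91, SE 0.372, adjusted p = 0.137), although it did without control 2 (-1.20, limma adjusted p = 0.022) and with limma-voom quality weights (0.048). Abcc8, which encodes the related receptor subunit, did not pass either (-0.55, SE 0.221, limma adjusted p = 0.130), again except without control 2 (-0.68, limma adjusted p = 0.0439).

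Because Rgs5, Abcc9 and Cnn1 fell, and Kcnj8 lies beside Abcc9, the bases just before their transcription starts are shown. They come from the RefSeq promoter table (GRCm38.p6), which held 6 of the 9 members, and run 5′ to 3′ on the gene's strand. Stretches that GENCODE M21 marks as exon were left out. The windows are Rgs5 at chr1:169655251-169655500 (plus), Abcc9 at chr6:142702316-142702524 (minus), Kcnj8 at chr6:142571615-142571864 (minus) and Cnn1 at chr9:22099003-22099215 (plus). Capitals mark TATATA in Rgs5, and in Abcc9 the RBPJ core TGGGAA that overlaps an MCAT element, CATTCC on the other strand.
Rgs5: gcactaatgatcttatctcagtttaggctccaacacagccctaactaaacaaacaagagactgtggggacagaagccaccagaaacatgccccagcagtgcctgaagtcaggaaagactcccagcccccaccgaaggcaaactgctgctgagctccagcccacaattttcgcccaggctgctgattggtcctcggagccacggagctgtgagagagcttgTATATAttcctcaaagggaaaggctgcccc
Abcc9: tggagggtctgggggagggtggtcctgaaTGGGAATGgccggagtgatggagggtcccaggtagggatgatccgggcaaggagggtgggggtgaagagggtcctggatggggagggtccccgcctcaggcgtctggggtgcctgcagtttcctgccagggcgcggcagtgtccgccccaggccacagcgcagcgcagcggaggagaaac
Kcnj8: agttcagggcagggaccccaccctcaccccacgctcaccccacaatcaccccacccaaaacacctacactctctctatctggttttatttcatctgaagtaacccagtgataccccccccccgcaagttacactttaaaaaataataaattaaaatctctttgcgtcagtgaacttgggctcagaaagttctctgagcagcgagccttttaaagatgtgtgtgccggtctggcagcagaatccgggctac
Cnn1: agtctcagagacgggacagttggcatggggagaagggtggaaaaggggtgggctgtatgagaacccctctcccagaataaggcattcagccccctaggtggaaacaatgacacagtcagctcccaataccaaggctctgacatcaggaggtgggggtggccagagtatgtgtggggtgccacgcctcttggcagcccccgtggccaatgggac

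The 4 windows differ in base content, from 49.2% G and C for Kcnj8 and 53.6% for Rgs5 to 58.7% for Cnn1 and 68.4% for Abcc9. Searched on both strands over whole 300-base windows, the CArG box, which serum response factor binds in smooth muscle genes, was in none of the 6 members' promoters and in 1.63% of all 32851 promoters. TGGGAA, the core bound by the Notch effector RBPJ, was in 1 of the 6 (Abcc9) and in 25.6% of all promoters. CATTCC, the MCAT element of muscle promoters, was in 1 of the 6 (Abcc9, overlapping TGGGAA) and in 14.7%. TATATA was added after the Rgs5 sequence had been read, and was in 1 of the 6 (Rgs5) and in 5.67%. Over 31 genes of the marker set and of the pericyte and smooth muscle lists with a promoter entry, 1 held a CArG box, Myl9, with CCTAATAAGG, while 16 held TGGGAA, 10 held CATTCC and 3 held TATATA. A gene was counted once if any of its promoter entries held a match, whereas the percentages are over all promoter entries. These matches describe letters in a short window and say nothing about binding.

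Higd1b encodes a small mitochondrial membrane protein of the hypoxia-inducible gene domain family and is used as a pericyte marker. Control libraries held 234, 390, 335 and 415 normalized counts of Higd1b. ICI-myocarditis libraries held 424, 183 and 97.0. ICI-myocarditis 1 was the highest of all 7 libraries and ICI-myocarditis 3 the lowest, so the ICI-myocarditis hearts spread more widely than the controls. Higd1b did not pass (limma log2 fold change -0.77, SE 0.449, 95% interval -1.78 to 0.24, adjusted p = 0.287). Without ICI-myocarditis 1 it was -1.32 (limma adjusted p = 0.0499).

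Pdgfrb, the receptor through which endothelial PDGF-BB recruits mural cells, is also expressed by fibroblasts. The gene lies on chromosome 18 from 61045150 to 61085061. Control libraries held 7315, 5850, 5346 and 3671 normalized counts of Pdgfrb. ICI-myocarditis libraries held 2928, 4355 and 4760. Control 4 was below 2 of the ICI-myocarditis hearts, and the groups overlapped. Pdgfrb did not pass (limma log2 fold change -0.45, SE 0.286, 95% interval -1.10 to 0.19, adjusted p = 0.328), which leaves both no difference and a loss of up to 1.10 on the log2 scale within the interval.

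Notch3 encodes the Notch receptor of mural cells. It lies on chromosome 17 from 32120820 to 32166852, and 6.03% of its exonic bases are shared with an annotated gene on the opposite strand, whose reads cannot be told apart where the use of strand in counting is not known. Control libraries held 8477, 5162, 3180 and 2433 normalized counts of Notch3. ICI-myocarditis libraries held 2128, 3294 and 3840. Control 1 was far above control 4, and the SD among controls, 2700, was larger than the distance between the group means of 4813 and 3087. Notch3 did not pass (limma log2 fold change -0.52, SE 0.416, 95% interval -1.45 to 0.42, adjusted p = 0.452).

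Mcam and Cspg4 encode cell surface proteins, the adhesion molecule CD146 of endothelium and mural cells and the proteoglycan NG2 of pericytes. Control libraries held 2924, 3422, 2503 and 1501 normalized counts of Mcam, and ICI-myocarditis libraries held 1423, 2013 and 2233. Control 4 again lay among the ICI-myocarditis hearts. An annotated antisense gene shares 0.507% of the exonic bases of Mcam. Mcam did not pass (limma log2 fold change -0.42, SE 0.299, 95% interval -1.09 to 0.26, adjusted p = 0.395). Control libraries held 3986, 3088, 3125 and 2888 normalized counts of Cspg4, and ICI-myocarditis libraries held 3000, 3508 and 4024. Cspg4 was the marker with the narrowest interval and the one closest to 0. Its log2 fold change was 0.10 (SE 0.204, 95% interval -0.36 to 0.56, limma adjusted p = 0.785), so a fall of the size seen for Rgs5 lay outside the interval. Its sign turned without ICI-myocarditis 3 (-0.00097).

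Myh11 encodes the smooth muscle myosin heavy chain, the motor of vessel contraction and the most specific marker of mature smooth muscle among the 9. It lies on chromosome 16 from 14194535 to 14291372. Control libraries held 5388, 3748, 2830 and 1305 normalized counts of Myh11. ICI-myocarditis libraries held 716, 1012 and 1289. The groups did not overlap, although control 4 was only just above ICI-myocarditis 3, and the controls covered a wider range than the ICI-myocarditis hearts. Myh11 fell by 1.59 on the log2 scale in limma (SE 0.435, 95% interval -2.57 to -0.61, adjusted p = 0.0383). The call was made in 10 of 18 alternatives. Leaving out control 1 (limma adjusted p = 0.0891), control 2 (0.0501), control 3 (0.0918), ICI-myocarditis 1 (0.115), ICI-myocarditis 2 (0.0927) or ICI-myocarditis 3 (0.0706) ended it, as did scaling by total reads (0.0973) and a fit without trended, robust variance (0.0590).

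Cnn1 encodes calponin, an actin-binding protein that tempers the contraction of smooth muscle. It lies on chromosome 9 from 22099216 to 22109630. Control libraries held 179, 96.2, 91.6 and 73.8 normalized counts of Cnn1. ICI-myocarditis libraries held 46.0, 31.9 and 23.7. All ICI-myocarditis hearts were below all controls, and control 1 was well above the others. Cnn1 fell by 1.64 on the log2 scale in limma (SE 0.392, 95% interval -2.52 to -0.76, adjusted p = 0.0227). The call was lost without control 1 (limma adjusted p = 0.0557), control 3 (0.0593), ICI-myocarditis 2 (0.0722) or ICI-myocarditis 3 (0.0961) and with scaling by total reads (0.0522). Without control 2 it held (-1.68, limma adjusted p = 0.0208).

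In the authors' deposited table the same 4 markers had an adjusted p below the threshold. Its log2 fold changes were -1.46 for Rgs5 (adjusted p = 2.35e-08), -1.56 for Abcc9 (0.000144), -1.71 for Cnn1 (0.000641) and -1.72 for Myh11 (0.00111). For the other 5 the authors' deposited table gave adjusted p-values from 0.304 (Pdgfrb) to 0.808 (Cspg4).

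The markers did not share one order of libraries. Control 1 was the highest control for 5 of the 9 (Pdgfrb, Cspg4, Notch3, Myh11 and Cnn1) and control 4 the lowest for 6 (those 5 and Mcam). For Rgs5 and Abcc9 the lowest control was instead control 2. Among ICI-myocarditis hearts, ICI-myocarditis 1 was lowest for Pdgfrb, Cspg4, Notch3, Myh11 and Mcam, and ICI-myocarditis 3 was highest for these 5. ICI-myocarditis 3 was lowest for Rgs5, Abcc9, Higd1b and Cnn1. Pdgfrb, Cspg4, Notch3, Myh11 and Mcam thus ranked the ICI-myocarditis hearts in the opposite order to Rgs5, Cnn1 and Higd1b, and Abcc9 was highest in ICI-myocarditis 2.

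Ratios within a library were compared to see whether the markers changed by unequal amounts. Each of the other 8 was divided by Pdgfrb, and Abcc9 also by Kcnj8 and Kcnj11, giving 10 log2 ratios tested by a two-sided exact permutation over the 35 ways of choosing 3 of the 7 libraries, which cannot give a p below 0.0286. The ratio of Cnn1 to Pdgfrb was -5.34, -5.91, -5.85 and -5.62 in controls and -5.96, -7.05 and -7.59 in ICI-myocarditis, lower in all 3 ICI-myocarditis hearts (exact permutation p = 0.0286, adjusted over 10 ratios 0.114). The ratio of Myh11 to Pdgfrb was -0.44, -0.64, -0.92 and -1.49 in controls and -2.03, -2.10 and -1.88 in ICI-myocarditis, with no overlap (exact permutation p = 0.0571, adjusted 0.114). Cnn1 and Myh11 were thus lower against Pdgfrb in every ICI-myocarditis heart, Cnn1 only just, at -5.96 beside -5.91 in the nearest control. Ratios of other smooth muscle genes to Pdgfrb were not tested. Cspg4 to Pdgfrb went the other way, from -0.73 ± 0.26 in controls (SD, n = 4) to -0.17 ± 0.18 in ICI-myocarditis (SD, n = 3), with no overlap and an exact permutation p of 0.0571 (adjusted 0.114). Rgs5 to Pdgfrb overlapped between groups, at 1.46 to 2.60 in controls and 0.33 to 1.68 in ICI-myocarditis (exact permutation p = 0.143, adjusted 0.204). Abcc9 to Pdgfrb overlapped too, at 1.42 to 2.96 and -0.12 to 1.57 (exact permutation p = 0.114, adjusted 0.190). Abcc9 to Kcnj8, its mural partner, overlapped, at 3.01 to 3.53 in controls and 2.32 to 3.09 in ICI-myocarditis (exact permutation p = 0.0571, adjusted 0.114). Abcc9 to Kcnj11 was 2.08 to 2.78 in controls and 1.54 to 1.95 in ICI-myocarditis, with no overlap (exact permutation p = 0.0571, adjusted 0.114). Mcam and Notch3 kept the most similar ratio to Pdgfrb in both groups, with differences of 0.04 and -0.06. None of the 10 passed adjustment, which at this sample size would have needed at least 6 ratios at the smallest possible p, so the adjusted values say little either way.

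**Figure D2:**
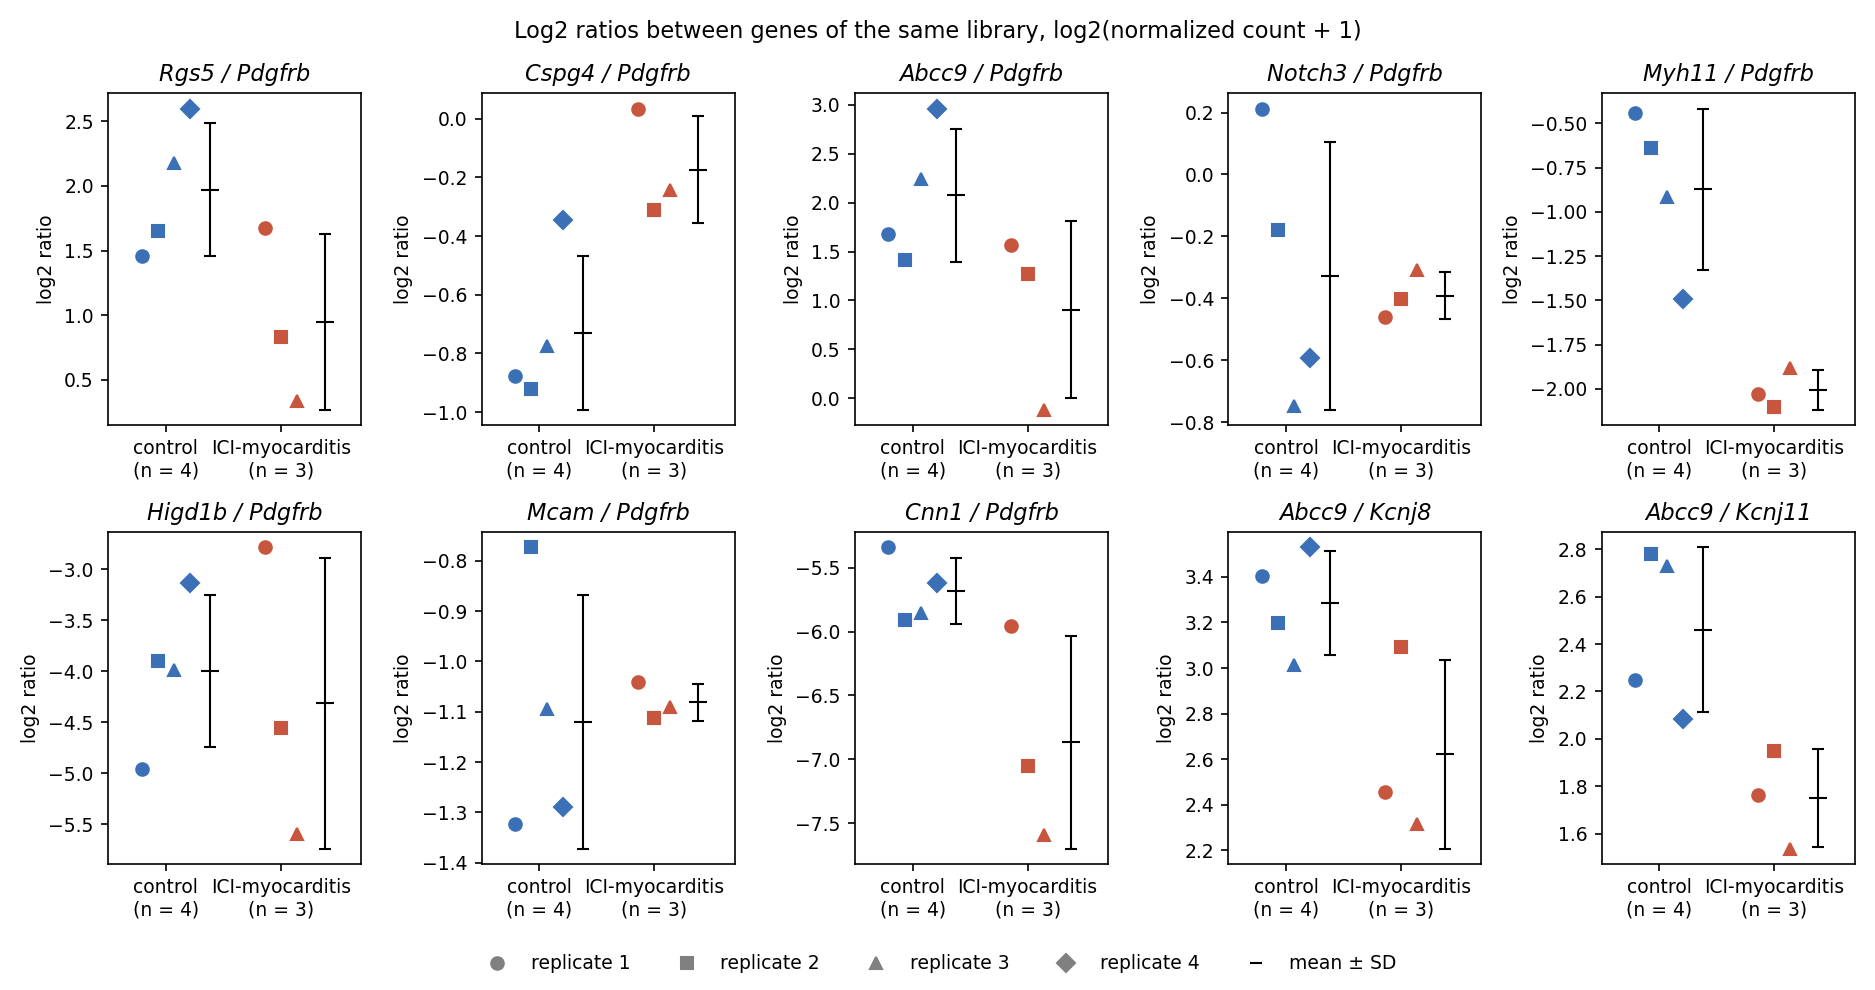
Log2 ratios between genes of the same library (vertical axes, log2 units) in 4 control and 3 ICI-myocarditis libraries, with the mean ± SD beside each group. Cnn1 and Myh11 over Pdgfrb and Abcc9 over Kcnj11 are lower, and Cspg4 over Pdgfrb is higher, in every ICI-myocarditis library than in any control.

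Other genes of the same cells were read from lists. Of 15 other pericyte genes, all tested, 3 fell, 1 rose and 11 did not pass, with a median log2 fold change of -0.57. Vtn, which encodes vitronectin, fell from 1505 ± 235 (SD, n = 4) to 586 ± 256 normalized counts (SD, n = 3), by 1.44 on the log2 scale in limma (SE 0.294, adjusted p = 0.0120). Anpep, which encodes aminopeptidase N and is also expressed by myeloid cells, was the gene that rose, from 727 ± 165 to 2705 ± 1551 normalized counts (limma log2 fold change 1.76, SE 0.365, adjusted p = 0.0125). Both were called in all 18 alternatives. The other decreases were Kcnj8 and, named after its value was seen, Gucy1b3 (-0.80), which encodes a subunit of the nitric oxide receptor guanylate cyclase. Gucy1b3 was called in 11 of 18 alternatives. The list's count of decreases ran from 1 to 8 over the alternatives, with 1 when control 1, control 3, ICI-myocarditis 2 or ICI-myocarditis 3 was left out or total reads set the scale, and 5 without control 4. Its median stayed below 0 in all 18. Lower calls over all genes moved as well, from 610 by limma as specified to 310 with total reads. They were 1522 with limma-voom quality weights, the setting that gave the 8, and 540 without control 4.

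Of 18 other smooth muscle genes, 4 fell, none rose and 14 did not pass, with a median of -0.76 and 17 of the 18 below 0. At an unadjusted p under 0.05 there were 11. For this list and those below, of all 15258 genes tested 7917 were below 0 and 4598 had an unadjusted limma p under 0.05. Pln and Myocd of this list are also heart muscle genes. Sncg, which encodes gamma-synuclein, fell from 127 ± 13.5 (SD, n = 4) to 43.4 ± 11.9 normalized counts (SD, n = 3), by 1.57 on the log2 scale in limma (SE 0.301, adjusted p = 0.00938, called in 18 of 18 alternatives). Mrvi1, which encodes a substrate of cGMP-dependent kinase that restrains calcium release, fell by 1.26 (SE 0.275, limma adjusted p = 0.0157). Mrvi1 missed the threshold without ICI-myocarditis 1 (0.0564) or 3 (0.0644) and with scaling by total reads (0.0565). The other decreases, named after their values were seen, were the contractile genes Lmod1 (-1.46) and Tpm2 (-0.89), each called in 13 of 18 alternatives. Acta2, smooth muscle actin, overlapped between groups, at 10232, 4290, 4191 and 6176 normalized counts in controls and 3053, 6612 and 2584 in ICI-myocarditis (limma log2 fold change -0.64, SE 0.408, adjusted p = 0.338). Acta2 is also the classical gene of myofibroblasts. Tagln, which encodes transgelin, lay at 1680 to 2111 in controls and at 878 to 1438 in ICI-myocarditis, apart, yet missed the threshold (-0.67, SE 0.209, limma adjusted p = 0.0594). Tagln passed in 3 of 18 alternatives, with a lowest adjusted p of 0.0101, and 1 of them was limma without ICI-myocarditis 1 (0.0496). The count of decreases ran from 1 with scaling by total reads to 10 with DESeq2. It was 2 without any one of the ICI-myocarditis hearts, 7 without control 4 and 6 without control 2. Lower calls over all genes moved as well, from 610 by limma as specified to 310 with total reads and 1243 with DESeq2. They were 540 without control 4 and 1088 without control 2.

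**Figure D3:**
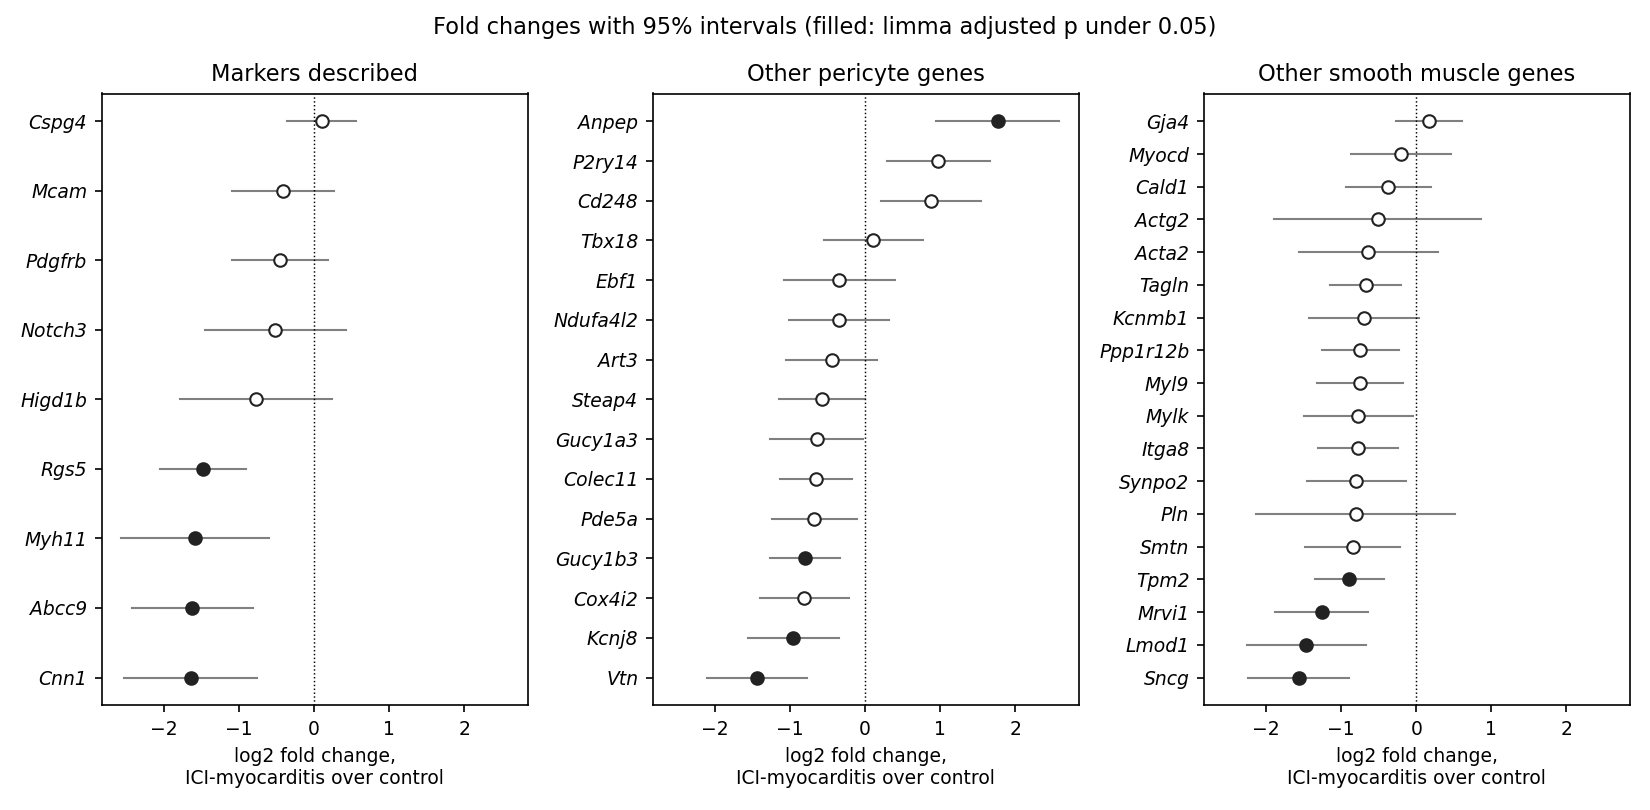
Log2 fold changes, ICI-myocarditis against control, from log2(normalized count + 1) values with 95% intervals, for the 9 markers and for the 15 other pericyte and 18 other smooth muscle genes; filled symbols passed a limma adjusted p of 0.05. Most points lie below 0, 4 of the markers, 3 of the other pericyte genes and 4 of the other smooth muscle genes are filled on the low side, and Anpep is the filled gene on the high side.

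Genes that act upstream of the receptors were examined next. Of 5 genes of PDGF ligands and the second receptor, 1 rose and 4 did not pass. Pdgfb, the endothelial ligand of the Pdgfrb receptor, did not pass, at 3602, 3556, 1758 and 1265 normalized counts in controls and 1690, 2605 and 2774 in ICI-myocarditis (limma log2 fold change 0.00, 95% interval -0.88 to 0.87, adjusted p = 0.995), and its sign turned under 5 of 18 alternatives, scaling by total reads among them. Pdgfc, a ligand of the receptor encoded by Pdgfra, rose from 125 ± 35.9 (SD, n = 4) to 445 ± 171 normalized counts (SD, n = 3), by 1.81 on the log2 scale in limma (SE 0.324, adjusted p = 0.00765, 18 of 18 alternatives). Pdgfd, another ligand of the Pdgfrb receptor, did not pass (-0.48, limma adjusted p = 0.257). Pdgfra, the fibroblast receptor, did not pass (0.27, SE 0.280, limma adjusted p = 0.574), and its sign turned without ICI-myocarditis 3 (-0.02) and with limma-voom quality weights (-0.09).

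Of 13 other Notch pathway genes, 1 fell, 1 rose and 11 did not pass, with a median of -0.60. Without control 4, 3 fell. Hey1, a transcriptional target of Notch, fell from 694 ± 251 (SD, n = 4) to 228 ± 37.9 normalized counts (SD, n = 3), by 1.54 on the log2 scale in limma (SE 0.305, adjusted p = 0.0106, 18 of 18 alternatives). Rbpj, which encodes the DNA-binding partner of the Notch receptors, rose by 0.91 (SE 0.216, limma adjusted p = 0.0218). The Rbpj call was lost without control 1 (0.0627), control 3 (0.0548), ICI-myocarditis 2 (0.0809) or ICI-myocarditis 3 (0.0961). Heyl, a Notch target that is prominent in mural cells, did not pass (-0.60, SE 0.296, 95% interval -1.26 to 0.07, limma adjusted p = 0.213). Of the alternatives, only limma-voom with quality weights called Heyl (adjusted p = 0.0407). Jag1, the ligand presented to Notch3, did not pass (-0.32, SE 0.282, limma adjusted p = 0.497).

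Of 12 genes of other signals between endothelium and mural cells, 1 fell, 2 rose and 9 did not pass, with a median of -0.19, which turned to 0.09 without ICI-myocarditis 1. Tgfbr1, a receptor of transforming growth factor beta, rose by 1.27 (SE 0.236, limma adjusted p = 0.00869, 18 of 18 alternatives). The second increase, named after its value was seen, was its partner Tgfbr2 (0.87, limma adjusted p = 0.0412, 11 of 18 alternatives). Tek, the endothelial receptor of the angiopoietins that pericytes secrete, fell by 1.09 (SE 0.293, limma adjusted p = 0.0357). The Tek call was lost without control 1 (0.0936), control 3 (0.0975), ICI-myocarditis 1 (0.106), 2 (0.0872) or 3 (0.0967), with scaling by total reads (0.138) and without trended, robust variance (0.0523). Of 6 genes of the serum response factor axis, which drives smooth muscle genes through CArG boxes, none passed limma's test. At an unadjusted p under 0.05 there was 1, edgeR called 0 and DESeq2 called 1. Myocd, which encodes the coactivator myocardin of smooth and heart muscle, was at 2851 to 6007 normalized counts in controls and 3249 to 4604 in ICI-myocarditis (-0.20, SE 0.295, limma adjusted p = 0.705). Mkl1, which encodes a related coactivator, was higher in every ICI-myocarditis heart but missed the threshold (1.01, SE 0.312, limma adjusted p = 0.0580), except without control 2 (0.0286) and with DESeq2 (0.0291) or limma-voom (0.00884). Klf4, which encodes a repressor of smooth muscle genes, did not pass (-0.54, limma adjusted p = 0.40).

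Markers of other cell types were read in the same libraries. All 10 endothelial markers were below 0, with a median of -1.06 and 5 called as lower (9 without control 4, 2 without control 1, control 3, ICI-myocarditis 1 or ICI-myocarditis 3, 3 without ICI-myocarditis 2, and 1 with scaling by total reads). Their summed level was 34305 to 87329 normalized counts in controls and 25697 to 32472 in ICI-myocarditis, and control 4, the lowest control for 6 of the 9 mural markers, was also the lowest here. All 10 cardiomyocyte markers were below 0, with a median of -0.79, and none was called by limma as specified (2 at an unadjusted p under 0.05, 0 by edgeR and 3 by DESeq2). Of the other limma fits, 1 was called with quality weights, with scaling by total reads, without trended, robust variance and without control 2. Their sum was lowest among controls in control 2, at 2502688, the lowest control for both Rgs5 and Abcc9. It was lowest of all in ICI-myocarditis 3, at 1889306, which held the least Rgs5, Abcc9, Higd1b and Cnn1. The other hearts did not keep one order. From ICI-myocarditis 1 to 2 the sum went from 2465605 to 3029656 and Abcc9 from 8669 to 10539, while Rgs5 went from 9366 to 7738. Ttn and Myh6, with control means of 2052010 and 985522, weigh heavily in the sum.

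Of 10 fibroblast markers 4 rose, with a median of 0.61 and summed levels of 102809 to 142657 normalized counts in controls and 167554 to 228915 in ICI-myocarditis. Without control 3 or ICI-myocarditis 2 the count was 0, and without ICI-myocarditis 3 it was 1. The 4 that rose were the collagen genes Col1a1, Col1a2 and Col3a1, and Pcolce. Pdgfra (0.27), Dcn (0.11), Dpt (0.11), Lum (0.51) and Tcf21 (0.70) did not pass. Gsn did not pass either, and was lower in every ICI-myocarditis heart (-0.67). Col3a1 alone went from 26090 to 69691 normalized counts in the mean, so collagens weigh heavily in the sum. Fibroblasts also transcribe Pdgfrb. The 8 macrophage markers all rose (median 2.46, sums of 13363 to 17824 and of 54833 to 84760), and so did the 8 T cell markers (median 5.19). Of 5 Schwann cell markers, all tested, 2 rose and 2 fell, with sums of 357 to 666 normalized counts in controls and 573 to 1021 in ICI-myocarditis. Of these, 0 fell and 1 rose without control 3, ICI-myocarditis 1 or ICI-myocarditis 2, 1 fell and 1 rose without ICI-myocarditis 3, and 1 fell and 2 rose without control 1. None of 6 mesothelial markers passed by limma (0 at an unadjusted p under 0.05, 0 by edgeR and 0 by DESeq2). Fat cell markers summed to at most 183 normalized counts, with none of 6 tested. Of 8 skeletal muscle markers 5 were tested, and Myh4, a defining gene, did not exceed 87.7 normalized counts. Ckm, also a heart gene, fell (-1.68, limma adjusted p = 0.0374), and Tnnt3 rose from 17.3 ± 11.3 (SD, n = 4) to 77.9 ± 46.7 normalized counts (SD, n = 3, limma adjusted p = 0.0449). Neither was called without control 1, 3 or 4 or without ICI-myocarditis 2 or 3, and without ICI-myocarditis 1 only the increase was. Summed over the 9 mural markers the groups stood apart, and Rgs5 and Abcc9 made up 60.5% to 80.5% of that sum in controls. The other 7 summed to 12288 to 28503 normalized counts in controls and 10665 to 16267 in ICI-myocarditis, which overlapped. The part of these other cells in the mural marker differences was not tested.

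**Figure D4:**
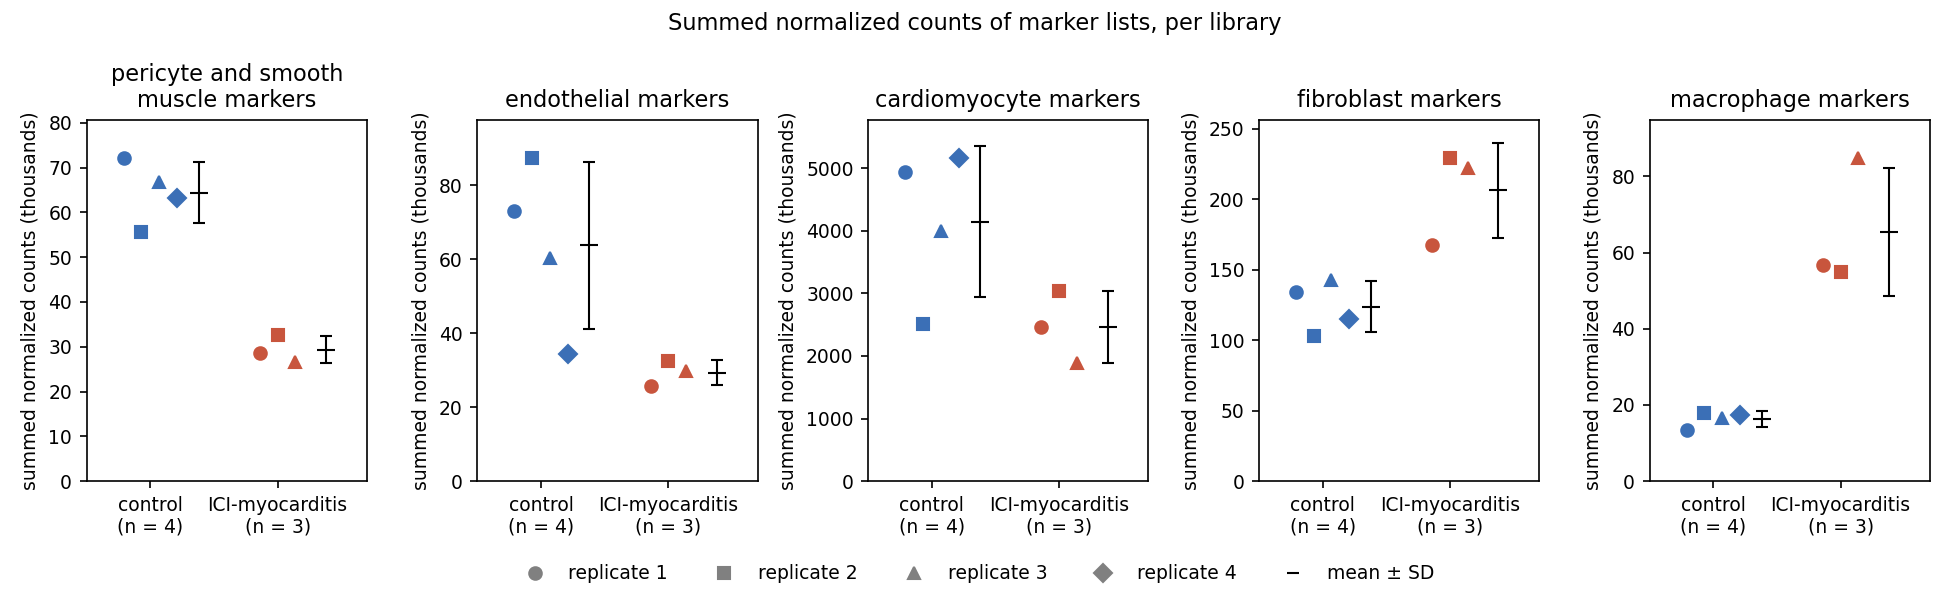
Summed normalized counts (linear axes from 0) of the 9 mural markers and of marker lists for 4 other cell types in each library, with the mean ± SD beside each group. The mural sum is 55709 to 72071 in controls and 26650 to 32675 in ICI-myocarditis, mostly Rgs5 and Abcc9 in controls. The endothelial sum is also lower in every ICI-myocarditis library than in any control, while the cardiomyocyte sum tends lower but overlaps. Fibroblast and macrophage sums are higher in every ICI-myocarditis library.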

How the data were processed

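Reads of 7 ventricle libraries were processed by the submitters, whose processing notes list STAR 2.7.3 and the builds GRCm38 and mm10. The counting program, annotation and use of strand are not given in the sources used here. The deposited table holds, per the file headers and its values, a signal per library, namely read counts divided by 1 size factor. It also holds the authors' log2 fold changes and their standard errors on that scale, a score (the deposited test statistic) and a deposited p-value and adjusted p-value. Whole reads were recovered from the deposited signal for 100% of values within 0.1 of a whole number. Control 1 had a step of 1.01, close to 1, but its values too lay within 0.00023 of a whole number of steps. Recovered reads served only for depth, scaling and count tests. Rows with date-like names numbered 27 and 2 names occurred more than once.

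limma 3.58.1 (R 4.3.3) with trended, robust variance was fitted to log2(normalized count + 1) over genes that reached 10 normalized counts in 3 or more libraries, and p-values were adjusted by Benjamini-Hochberg over the 15258 genes tested. This scale understates changes of low genes. The 18 alternatives included edgeR 4.0.16 and DESeq2 1.42.0 on recovered reads, and the tests were checked on simulated data. The animals number 4 and 3, which limits precision, and their spread was not separated from counting error. Levels per kilobase used the joined exon length of GENCODE M21, and promoters came from RefSeq. Of the listed markers, Adgre1 was matched through its older symbol Emr1.

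The members and lists were chosen with earlier results of these data known. Named are all 9 members, the 2 genes of each companion list with the lowest p, a few set genes (Kcnj8, Kcnj11, Pdgfb, Pdgfra, Acta2, Tagln, Jag1, Heyl and Myocd), marker genes of other cell types, and the 3 genes nearest to Rgs5 and to Myh11. Others are marked as named after their values were seen. Some listed genes are not reported here and were left out of the lists' counts.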

Additional observations from a re-analysis of the deposited data

How the results depend on the processing

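Of the markers, Rgs5 kept its direction and its call in all 18 alternatives, Abcc9 in 15, Cnn1 in 13 and Myh11 in 10. The number of markers called was 4, and it was 2 with scaling by total reads and between 1 and 4 when a library was left out, with 1 without ICI-myocarditis 3 and 1 without control 3. The count of calls over all genes was 2397. It was 4014 with limma-voom quality weights and between 986 and 3340 when a library was left out. Of the calls, 74.6% were higher in ICI-myocarditis, against 62.1% with limma-voom, 63.9% with DESeq2 and 84.3% with scaling by total reads. That scaling moved the median log2 fold change of all genes from -0.02 to 0.14. Relative to this median Rgs5 was at -1.45, Abcc9 at -1.60, Myh11 at -1.56 and Cnn1 at -1.62 under it. Scaling shifts all genes by nearly the same amount, so these values hardly depend on it and are no separate support for the calls.

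Replicate numbers are shared by the groups, but same-numbered libraries did not deviate together, with correlations of -0.27, -0.21 and -0.08 over tested genes, and no library correlated best with its own number. With the replicate block, in 6 libraries, 1764 genes were called, and of the markers Rgs5, Myh11 and Cnn1 passed. Abcc9 was at -1.51 (limma adjusted p = 0.0643) under the block, and Kcnj8 and Rbpj also missed the threshold (0.126 and 0.0686). Among the 33 genes followed through every alternative, 3 turned sign. These were Cspg4 without ICI-myocarditis 3 (-0.00097), and Pdgfra with limma-voom (-0.092) and without ICI-myocarditis 3 (-0.019). The third was Pdgfb, with limma-voom (0.17), with total reads (0.16) and without control 1 (0.21), control 2 (0.20) or ICI-myocarditis 1 (0.22). Outside that set, the fibroblast markers Dcn and Dpt turned sign in 3 alternatives each. Leaving out 1 library at a time gave -0.29 to 0.22 for Pdgfb and -0.019 to 0.46 for Pdgfra. In the controls, 0 of 33 results held a library beyond Dixon's critical gap. With 4 and 3 animals, changes of the size seen for Pdgfrb, Mcam or Notch3 were not separable from 0.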

Other observations

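Rgs5 was the member of its gene family with the largest fall among those read. Of 8 other RGS genes, 4 rose, 1 fell and 3 did not pass. Rgs1, known from activated lymphocytes, rose from 37.0 ± 33.0 (SD, n = 4) to 313 ± 25.9 normalized counts (SD, n = 3), by 3.37 on the log2 scale in limma (SE 0.517, adjusted p = 0.00455). Rgs16, which T cells induce on activation, rose by 2.78 (SE 0.490, limma adjusted p = 0.00716). Rgs4, also a gene of mural cells and named after its value was seen, fell from 922 ± 200 (SD, n = 4) to 426 ± 41.2 normalized counts (SD, n = 3), with a log2 fold change of -1.09 (limma adjusted p = 0.00969). Rgs10 (1.36) and Rgs19 (1.35) were the other increases. All 5 were called in 18 of 18 alternatives.

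Genes with the pattern most like Rgs5 over the 7 libraries were found by the root mean square distance of log2 values centred on each gene's mean. The nearest of 15257 other tested genes were 6820408C15Rik at 0.08, Pnck, which encodes a calmodulin-dependent kinase, at 0.14 and Rapgef4, which encodes a cAMP-activated exchange factor, at 0.15, where the median distance over all genes was 0.82. Abcc9 was at 0.30, in place 86, and Cnn1 at 0.43, in place 625. Pdgfrb and Notch3 were at 0.71 and 0.86. Nearest to Myh11 were Kcna1 at 0.22, a potassium channel gene that is also in the Schwann cell list, Lmod1 at 0.24 and Tspan18, a tetraspanin gene, at 0.29, where the median was 1.07. Notch3 at 0.57, in place 223, and Cnn1 at 0.57, in place 242, were the markers closest to Myh11, and Rgs5 was at 0.75. The distances share the libraries and the group difference, and they are given as a description.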
